A study of Mus musculus with 85 samples.

Results

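Lysosomal enzymes and membrane proteins were followed in single cells along the route from the vessel wall to the blood stem cell. The set was given as a list of 29 genes, of which 28 had a named probe set on the array. Cd63 had none and was not analysed here. All 28 were above background (a log2 value over 5) in at least 3 of the 84 cells counted, out of 10695 genes that were, and each gene was read on its brightest probe set. The genes were ordered by role into 7 cysteine cathepsins and legumain, 3 other proteases, 8 glycosidases and sulfamidase, 6 lipid hydrolases and lipid-binding proteins and 4 membrane proteins.

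The cells came from 5 sorted mouse populations. At embryonic day 10.5 (E10.5), 7 endothelial cells (EC) and 7 cells of the hemogenic endothelium (HEC), from which blood cells arise, were taken from the caudal part of eR1-GFP embryos, in which an enhancer of Runx1 drives GFP. Both gates asked for CD31 and excluded Ter119, CD45 and CD41, and GFP separated HEC from EC. Wild-type embryos gave cells of the hematopoietic clusters, which bud from the aortic wall, in the gate c-Kit+CD31+CD45+SSEA1-, at day 10.5 from the caudal part (28 cells) and at day 12.5 (E12.5) from the aorta-gonad-mesonephros (16 cells). Wild-type fetal liver of day 14.5 gave hematopoietic stem cells (HSC), sorted as c-Kit+Sca-1+Lin- cells that were also CD150+, CD48- and Mac-1+ (27 arrays). All cells were freed with collagenase and sorted singly, and the amplified RNA of each went to 1 Affymetrix array. The labels name no embryo or litter, so each population is a single sample and differences between populations carry no test. The SD given with a mean is the spread over cells.

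Lysosomes are acidic organelles in which proteases, glycosidases and lipases break down proteins, glycoconjugates and lipids that arrive by endocytosis, phagocytosis and autophagy. Most of the enzymes are tagged with mannose 6-phosphate in the Golgi and carried to the lysosome by receptors, and the proton pump V-ATPase keeps its interior acidic. Many lysosomal genes carry a short palindrome, CACGTG, near their start, which is the core of the element bound by the factors TFEB, TFE3 and MITF. Macrophages, which digest what they engulf, are rich in these enzymes, and mast cells and other granulocytes store proteases in lysosome-related granules.

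The promoter windows in RefSeq (GRCm38.p6, 250 bases before to 50 bases after each start) held 25 of the 29 listed genes. CACGTG, which reads the same on both strands, stood in the windows of 9 of the 25 (36.0%), against 8.09% of all 27025 genes in the table. These were Ctsl, Lgmn, Ctsd, Ctsa, Gaa, Gla, Glb1, Sgsh and Lamp1. The longer form TCACGTGA, which contains the shorter one, stood in 3 of the 25 (Ctsd, Ctsa and Gla, 12%), against 1.12% of all genes. The stretches printed here show the motif in capitals in Lamp1, which had the most copies, in the genes with the longer form and in further members with 1 or more copies. Lamp1 had 4 copies within 64 bases, at chr8:13159094-13159157 on the plus strand, ending 4 bases before the start. The printed copy of Ctsd is at chr7:142387909-142387936 (minus strand), that of Ctsa at chr2:164833750-164833772 (plus), that of Gla at chrX:134601183-134601210 (minus), that of Glb1 at chr9:114401019-114401046 (plus), that of Lgmn at chr12:102439125-102439152 (minus) and that of Ctsl at chr13:64370740-64370767 (minus). Ctsd, Ctsa and Gla each had a second copy, not printed, whose first base was at -245, 5 and -227 from the start.
Lamp1: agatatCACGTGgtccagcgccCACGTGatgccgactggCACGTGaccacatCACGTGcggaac
Ctsd: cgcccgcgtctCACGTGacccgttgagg
Ctsa: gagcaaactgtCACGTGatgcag
Gla: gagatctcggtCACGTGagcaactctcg
Glb1: tgcttctgagtCACGTGgcctacagagg
Lgmn: ggaatgtctgtCACGTGgtccattttat
Ctsl: gcgttagaagcCACGTGctgatctaaat
A match is a description of these letters and not of binding. The 9 genes with the motif and the 15 measured genes whose windows lacked it are set side by side here by the median of their log2 differences between populations, which are described further below. The medians were 1.55 and 0.91 for HEC minus EC, 0.97 and 1.2 for day 10.5 cluster cells minus HEC, -0.51 and -0.30 for day 12.5 minus day 10.5 cluster cells, -1.68 and -1.75 for HSC minus day 12.5 cluster cells, and -2.18 and -1.53 for HSC minus day 10.5 cluster cells.

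Several features of the series bear on the values below. HSC arrays 20 and 21 correlated at r = 0.991 and were averaged as 1 cell, which left 26 HSC and 84 cells in all. The number of probe sets above background ran from 3908 to 8308 in EC, 6670 to 9065 in HEC, 8244 to 11487 in day 10.5 cluster cells, 4137 to 11079 in day 12.5 cluster cells and 4750 to 8489 in HSC. The median difference of all measured genes was 0.82 for HEC minus EC and 0.71 for day 10.5 cluster cells minus HEC. It was -0.66 for E12.5 minus day 10.5 cluster cells. For HSC it was -0.54 against day 12.5 cluster cells and -1.29 against day 10.5 cluster cells. With quantile normalization these medians were 0.00, 0.19, -0.03, 0.01 and -0.04. Among the day 12.5 cluster cells, 3 (cells 3, 6 and 10) had Kit, a gene of the sorting gate, at or below 5. So did day 10.5 cluster cell 7 (4.02), with 4 of 16 macrophage and 3 of 4 granule markers above background, and HSC cell 5 (2.48). EC cell 3 had 1 of 7 endothelial markers and 3 of 4 germ-cell markers (Dppa3 at 14.59) above background. HSC cells 5 and 7 had 4 of 5 sinusoidal or lymphatic endothelial markers (Lyve1 at 15.05 and 14.73), and 6 and 7 of the 7 endothelial markers. The other 6 EC had 5 to 7 and all HEC had 7 of the 7 endothelial markers, and 4 to 6 of 6 blood progenitor markers were above background in each E10.5 cluster cell and each E12.5 cluster cell with Kit. Runx1, whose enhancer drives the GFP of the HEC gate, was at background in all 7 EC and all 7 HEC.

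**Figure D1:**
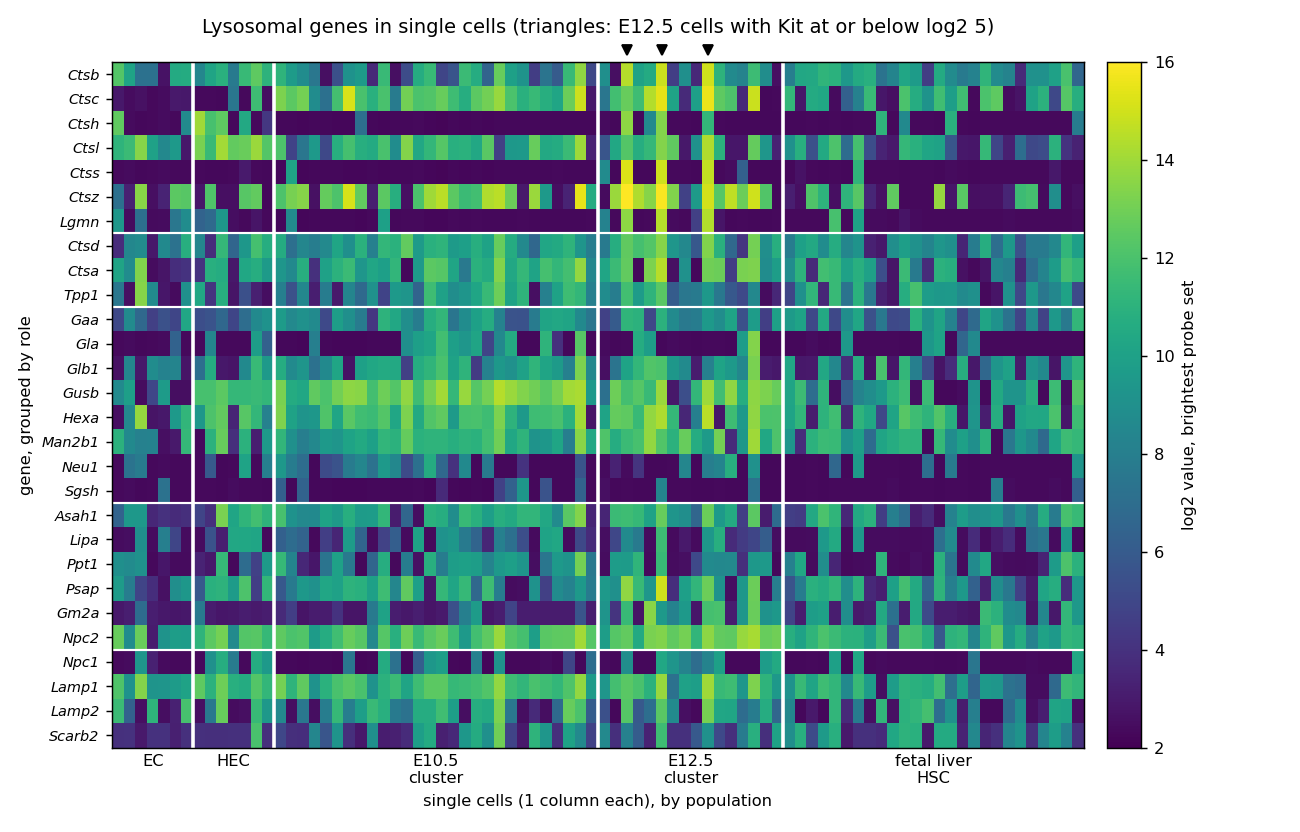
Log2 values of the 28 lysosomal genes (rows, grouped by role) in 84 single cells (columns, by population), with triangles over the 3 day 12.5 cluster cells whose Kit was at or below log2 5. Npc2 and Lamp1 are bright in nearly every column, Ctsh, Ctss, Lgmn and Sgsh are dark in most, and the 3 marked columns are bright in 25 or 26 of the 28 rows.

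A typical cell held 18 of the 28 genes above background, with a range of 7 to 26. Of the 2352 values 62.0% were above background, against 44.5% over all measured genes. In a single cell a gene was mostly either near the lower bound or well above background, since 2.55% of the values lay between 5 and 6. Npc2 was above background in 83 of 84 cells, Lamp1 in 81 and Ctsd in 77, and none of the 28 in every cell. In all, 13 genes were above background in at least 75% of the cells, and 4 (Ctsh, Ctss, Lgmn and Sgsh) in under 25%.

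The mean of the 28 genes in a cell was lowest in EC, at 5.90 ± 1.13 (SD, n = 7 cells), with a range of 4.50 to 7.54. It was 7.35 ± 1.14 in HEC (n = 7 cells, 5.46 to 8.48), 7.96 ± 1.02 in day 10.5 cluster cells (n = 28 cells, 5.88 to 10.17), 8.14 ± 2.06 in day 12.5 cluster cells (n = 16 cells, 6.06 to 12.19) and 6.54 ± 0.94 in fetal liver HSC (n = 26 cells, 5.41 to 8.68). The ranges of all 5 populations overlapped. Without the 3 E12.5 cells that were low in Kit, the E12.5 mean was 7.36 ± 1.30 (n = 13 cells, 6.06 to 10.39). Set against the mean of all measured genes in the same cell, the lysosomal mean stood 1.00 higher in EC, 1.39 in HEC, 1.28 in day 10.5 cluster cells, 2.26 in day 12.5 cluster cells (1.45 without the 3 cells) and 1.32 in HSC. On that relative scale the population means, apart from the 3 cells, thus lay between 1.00 and 1.45, and the single cells overlapped. Across cells of a population the lysosomal mean went with the number of probe sets above background, with a Pearson r of 0.79 in EC (n = 7), 0.83 in HEC (n = 7), 0.72 in day 10.5 cluster cells (n = 28) and 0.43 in HSC (n = 26). In day 12.5 cluster cells r was 0.14 (n = 16), and 0.39 without the 3 cells (n = 13). Both measures come from the same arrays, so these correlations describe them and no p is given.

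**Figure D2:**
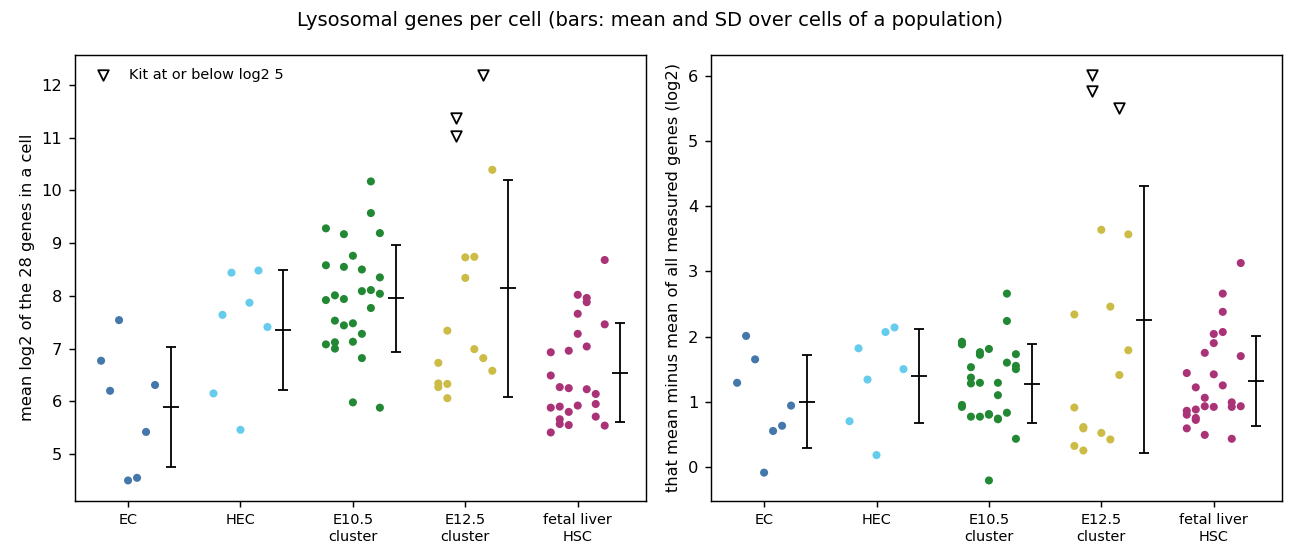
Left, the mean log2 value of the 28 lysosomal genes in each cell; right, the same mean minus the mean of all measured genes in that cell, by population, with the mean and SD over cells beside the points. The 3 E12.5 cells low in Kit (triangles) are at 11.03, 12.19 and 11.37 on the left, above every other cell. On the right they are at 6.02, 5.51 and 5.77, and the highest of the other E12.5 cells is at 3.64.

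The cysteine cathepsins and legumain had different patterns. Ctsc, the dipeptidyl peptidase that activates granule serine proteases, marked the step from endothelium to cluster. In EC it ran from 2.38 to 2.93 (median 2.63), with 0 of 7 cells above background (exact 95% interval 0 to 41.0%). In HEC it ran from 2.31 to 11.63 (median 2.38), with 2 of 7 above. In day 10.5 cluster cells it ran from 2.88 to 15.13 (median 12.02), with 27 of 28 above and the highest value in cell 7, the cell low in Kit. All but 1 of the cluster cells therefore held Ctsc and most endothelial cells did not, although the ranges of HEC and cluster cells overlapped. The mean was 7.07 higher in day 10.5 cluster cells than in HEC, which was 6.72 to 8.27 with any 1 cell left out, 6.36 with quantile normalization and 3.28 when the gene's probe sets were averaged. The other probe sets of Ctsc, above background in 22 and 6 of the 84 cells, gave 1.92 and 0.85. In day 12.5 cluster cells 12 of 16 were above background (2.32 to 15.60, median 11.70), and in HSC 19 of 26 (2.36 to 12.51, median 10.21). The difference of HSC from day 10.5 cluster cells was -3.22 (-1.80 with quantile normalization).

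Ctsz, a carboxypeptidase, was present or absent cell by cell. It passed background in 4 of the 7 EC (2.55 to 13.52, median 7.18), 3 of 7 HEC (2.32 to 12.64, median 2.87), 22 of 28 day 10.5 cluster cells (2.54 to 15.48, median 12.28), 13 of 16 day 12.5 cluster cells (2.31 to 16.07, median 13.39) and 10 of 26 HSC (2.30 to 13.78, median 3.01). Most cluster cells held it and most HSC did not, with ranges that overlapped throughout. Its mean was 3.91 higher in day 10.5 cluster cells than in HEC. HSC differed from day 10.5 cluster cells by -4.52 and from day 12.5 cluster cells by -5.58 (-4.68 without the 3 cells low in Kit). With quantile normalization these were -3.34 and, over all cells, -4.53.

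Ctsl and Ctsb are broadly acting endopeptidases. Ctsl was highest in HEC, where it ran from 11.51 to 14.05 (median 12.82) and was above background in all 7 cells. EC ran from 2.89 to 13.46 (median 9.99), day 10.5 cluster cells from 3.34 to 13.93 (median 10.70), day 12.5 cluster cells from 2.84 to 14.31 (median 10.55) and HSC from 2.86 to 12.10 (median 6.36). HEC were the most uniform of the 5, with an SD of 0.89 against 2.71 to 4.12 in the others. The HEC mean was 3.34 higher than that of EC, which became 2.22 without EC cell 7, the EC without Ctsl. The difference of day 10.5 cluster cells from HEC was -2.84. Ctsb was above background in 72 of all 84 cells, and its mean was 10.32 ± 1.69 in HEC (n = 7 cells) and 8.15 ± 3.19 in day 10.5 cluster cells (n = 28 cells). The difference between those populations, -2.17, had the opposite sign on the 3 other probe sets of Ctsb above background in at least 3 cells, which gave 0.66, 0.26 and 1.19. The direction for Ctsb therefore depends on the probe set.

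Ctsh, an aminopeptidase, and Lgmn, the asparaginyl endopeptidase, were above background more often in endothelium than in day 10.5 cluster cells. Ctsh passed background in 4 of 7 HEC (2.33 to 13.98, median 10.46), 2 of 7 EC (2.32 to 12.58, median 2.39), 1 of 28 day 10.5 cluster cells (2.19 to 7.13, median 2.29), 4 of 16 day 12.5 cluster cells (2.28 to 13.60, median 2.33) and 4 of 26 HSC (2.30 to 11.08, median 2.35). The difference of day 10.5 cluster cells from HEC was -5.80, and -6.79 to -4.85 with any 1 cell left out. Of the 4 E12.5 cells with Ctsh, 3 were the cells low in Kit. Lgmn was above background in 4 of the 7 EC, 3 of the 7 HEC, 2 of 28 day 10.5 cluster cells, 4 of 16 day 12.5 cluster cells and 2 of 26 HSC, and here too 3 of the 4 E12.5 cells were those low in Kit.

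Ctss, the cathepsin of antigen-presenting cells, was at background outside a few cells. No EC or HEC held it (0 of 7 each, exact 95% interval 0 to 41.0%), and 1 of 28 day 10.5 cluster cells (at 10.10) and 1 of 26 HSC (at 11.17) did. In day 12.5 cluster cells 5 of 16 held it. It was at 15.24, 15 and 14.69 in the 3 cells low in Kit, and at 8.75 and 6.30 in cells 1 and 13, whose Kit was 13.49 and 9.47.

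**Figure D3:**
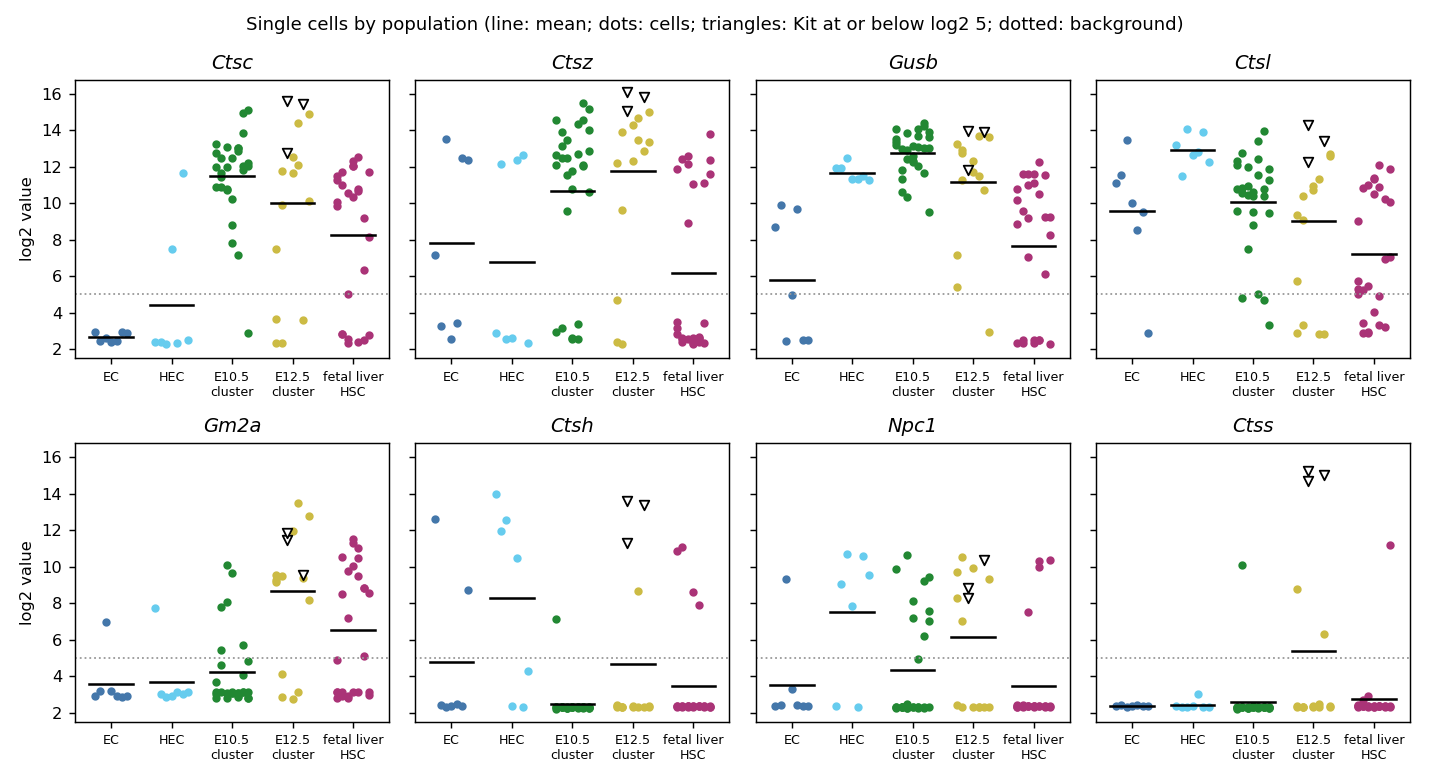
Log2 values in single cells, by population, of 8 lysosomal genes, with the population mean as a line, the background limit of 5 dotted and the E12.5 cells low in Kit as triangles. Ctsc is at background in all 7 EC and above it in 27 of 28 day 10.5 cluster cells, Gusb in all 7 HEC lies above every EC, Gm2a is above background in 6 of 28 E10.5 and 12 of 16 day 12.5 cluster cells, and Ctss reaches 14.69 to 15.24 in the triangles.

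The other proteases were above background in most cells of the cluster and HSC populations. Ctsd, the main aspartic protease, was above background in 5 of the 7 EC, 6 of the 7 HEC, 28 of 28 day 10.5 cluster cells, 15 of 16 day 12.5 cluster cells and 23 of 26 HSC, with means of 7.23 ± 2.85, 8.87 ± 2.90, 9.84 ± 1.51, 10.01 ± 2.84 and 8.28 ± 2.24 (SD over cells). Ctsa is the carboxypeptidase that protects beta-galactosidase and sialidase. It passed background in 3 of the 7 EC, 5 of 7 HEC and 26 of 28 day 10.5 cluster cells, with means of 6.50 ± 4.27, 8.45 ± 3.44 and 10.16 ± 2.43. Tpp1, a tripeptidyl peptidase, passed background in 4 of the 7 EC, 3 of 7 HEC and 24 of 28 day 10.5 cluster cells. Its mean was 5.60 ± 3.52 in HEC (n = 7 cells) and 8.49 ± 2.73 in day 10.5 cluster cells (n = 28 cells), 2.89 higher in the latter (0.94 on its other probe set). The SDs show that the cells of each population overlapped for all 3 genes. Ctsd was 1.64 higher in HEC than in EC, and HSC differed from day 10.5 cluster cells by -1.56. Both changed sign with quantile normalization (-0.12 and 0.30).

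Among the glycosidases, Gusb, the beta-glucuronidase, separated HEC from EC without overlap. In EC it ran from 2.45 to 9.92 (median 4.97) and 3 of 7 cells were above background. In HEC it ran from 11.25 to 12.46 (median 11.49), in all 7 cells. In day 10.5 cluster cells it ran from 9.49 to 14.42 (median 13.02), in all 28. Every HEC lay above every EC, and Gusb was the only one of the 28 genes for which this was so, where 0.215% of all measured genes (23) showed the same. Without EC cell 3 it was again the only one, where 40 measured genes (0.374%) showed it. In day 12.5 cluster cells Gusb ran from 2.92 to 13.94 (median 12.08) with 15 of 16 above background, and in HSC from 2.31 to 12.25 (median 9.23) with 18 of 26 above. The mean was 5.85 higher in HEC than in EC (4 with quantile normalization) and 1.08 higher in day 10.5 cluster cells than in HEC. The other probe set of Gusb, above background in 25 of the 84 cells against 71, gave 0.17 and 2.58 for these steps, so that the separation of HEC from EC rests on 1 probe set. HSC differed from day 10.5 cluster cells by -5.09 (-3.83 with quantile normalization). Against day 12.5 cluster cells HSC differed by -3.52, and by -3.05 without the 3 cells low in Kit.

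The remaining glycosidases were less sharply divided. Hexa, the alpha subunit of beta-hexosaminidase, had means of 7.33 ± 4.60 in EC, 9.90 ± 3.29 in HEC, 11.19 ± 2.07 in day 10.5 cluster cells, 10.89 ± 3.47 in day 12.5 cluster cells and 8.90 ± 3.55 in HSC. Man2b1, the lysosomal alpha-mannosidase, passed background in 4 of 7 HEC and 28 of 28 day 10.5 cluster cells, and its mean of 10.50 ± 1.35 in the latter (n = 28 cells) was 2.84 above that of HEC (0.71 on its other probe set). Glb1, the beta-galactosidase, and Gaa, the acid alpha-glucosidase that degrades glycogen, had means of 9.30 ± 2.29 and 8.69 ± 1.86 in day 10.5 cluster cells. These were 1.73 and 1.92 higher than in HEC. Gla, the alpha-galactosidase, and Neu1, the sialidase, were above background in 12 and 17 of 28 day 10.5 cluster cells and in 5 and 5 of 26 HSC. Sgsh, the heparan sulfamidase, was at background in most cells of every population, with 11 of 84 above. Hexa, Man2b1, Glb1, Gaa, Gla, Neu1 and Sgsh had their highest share of cells above background in day 10.5 cluster cells, with Gla at the same 42.9% in HEC. These cells also had the most probe sets above background (8244 to 11487). How many of all measured genes had their highest share there was not counted, so this is not read as a feature of these genes. The mean of Man2b1 was higher in day 12.5 cluster cells (11.18 ± 2.40).

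Of the lipid group, Gm2a, the activator protein for degradation of the ganglioside GM2, differed most between the cluster stages. It ran from 2.84 to 6.95 (median 2.90) in EC and from 2.87 to 7.71 (median 3.04) in HEC, with 1 of 7 cells above background in each. In day 10.5 cluster cells it ran from 2.79 to 10.07 (median 3.10) with 6 of 28 above (21.4%, exact 95% interval 8.30 to 41.0%). In day 12.5 cluster cells it ran from 2.75 to 13.50 (median 9.42) with 12 of 16 above (75%, 47.6 to 92.7%). Most E12.5 cells held it and most E10.5 cells did not, and the highest value came from cell 5, whose Kit was 9.24. The E12.5 mean was 4.47 higher than that of E10.5, and 3.95 higher without the 3 cells low in Kit, when 9 of 13 cells were above background. With any 1 cell left out the difference was 4.15 to 4.87, and with quantile normalization 5.10. The other probe sets of Gm2a were above background in 2 and 0 of the 84 cells and gave no check. In HSC Gm2a ran from 2.81 to 11.52 (median 6.15) with 14 of 26 above background, and its mean was 2.29 higher than in day 10.5 cluster cells.

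Npc2 and Npc1 pass cholesterol from the lysosome lumen to its membrane, and their patterns differed. Npc2, the soluble carrier, was above background in all cells but EC cell 4, with means from 9.45 ± 3.26 in EC to 12.58 ± 1.17 in day 12.5 cluster cells (n = 16 cells). Npc1, the membrane transporter, passed background in 1 of the 7 EC (2.35 to 9.32, median 2.40), 5 of 7 HEC (2.33 to 10.70, median 9.02), 9 of 28 day 10.5 cluster cells (2.25 to 10.63, median 2.31), 9 of 16 day 12.5 cluster cells (2.28 to 10.51, median 7.63) and 4 of 26 HSC (2.30 to 10.35, median 2.35). The only EC with Npc1 was cell 3, the cell with germ-cell markers. Its mean was 3.99 higher in HEC than in EC (4.96 without EC cell 3) and 1.81 higher at E12.5 than at E10.5 (1.12 without the cells low in Kit). The difference of day 10.5 cluster cells from HEC was -3.14 and that of HSC from day 12.5 cluster cells -2.69. Npc1 and Ctsh were both highest on average in HEC.

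The cells of all populations overlapped for the remaining lipid-handling genes. Asah1, the acid ceramidase, had means of 5.8 ± 2.70 in EC (n = 7 cells) and 9.46 ± 3.60 in HEC (n = 7 cells), 3.66 higher (0.98 with quantile normalization), and 9.51 ± 2.66 in day 10.5 cluster cells. Psap, the precursor of the saposins, was 2.61 higher in HEC than in EC and reached 15.01 in E12.5 cell 6, where the highest of the 13 cells with Kit was at 12.88. Lipa, the acid lipase, was above background in 37 and Ppt1, a thioesterase that removes palmitate from proteins, in 49 of the 84 cells. HSC differed from day 10.5 cluster cells by -1.51 for Asah1 and -1.43 for Lipa, and both had the opposite sign with quantile normalization (0.48 and 0.03).

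Lamp1, a major protein of the lysosomal membrane, was above background in all cells except 3 HSC. It ran from 9.14 to 13.41 (median 9.68) in EC, 10.64 to 12.90 (median 11.26) in HEC, 9.15 to 13.74 (median 11.64) in day 10.5 cluster cells, 7.24 to 14 (median 11.28) in day 12.5 cluster cells and 2.47 to 11.76 (median 9.75) in HSC. HSC had the lowest mean, differing by -2.73 from E10.5 and -2.22 from day 12.5 cluster cells (-1.58 and -1.66 with quantile normalization). Lamp2, its paralog that also serves chaperone-mediated autophagy, was above background in 4 of the 7 EC and 4 of the 7 HEC. It was above in 22 of 28 day 10.5 cluster cells, 13 of 16 day 12.5 cluster cells and 14 of 26 HSC. The mean of Lamp2 in HEC differed from that in EC by -0.06 on this probe set. On the other probe sets of Lamp2 the difference was -2.59, -2.89 and -0.51. For day 10.5 cluster cells minus HEC these gave 4.08, 4.62 and 0.37. The size of the Lamp2 differences at these steps therefore depends on the probe set. Scarb2, the receptor that carries glucocerebrosidase, was above background in 0 of the 7 EC, 1 of the 7 HEC, 14 of 28 day 10.5 cluster cells, 10 of 16 day 12.5 cluster cells and 16 of 26 HSC. Scarb2 was the only membrane protein of the 4 with its highest mean in HSC (7.21 ± 3.14, n = 26 cells). Its other probe set differed by -2.62 between HSC and day 12.5 cluster cells and by -1.88 between HSC and day 10.5 cluster cells, where the one used gave 0.57 and 0.54. For HEC minus EC and for day 10.5 cluster cells minus HEC the other probe set gave 2.97 and 0.05, against 1.35 and 1.60.

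The populations were then compared over the whole set, counting a gene as higher or lower where its mean differed by 1 log2 unit or more. Between EC and HEC, the comparison of plain with blood-forming endothelium, 17 of the 28 were higher in HEC and 3 lower (Ctsz, Lgmn and Tpp1). Of all measured genes 45.9% were higher and 7.36% lower. The median of the lysosomal genes was 1.60 and that of all genes 0.82. Gusb, Npc1, Asah1, Ctsh and Ctsl differed most (5.85, 3.99, 3.66, 3.52 and 3.34). The 3 lower genes were all near the limit (-1.04 to -1.06), and 1 or none was lower without HEC cell 4, 6 or 7 or without EC cell 1, 3, 6 or 7. Without EC cell 3 the counts were 19 and 0, where 49.5% and 6.28% of all measured genes were past the limits. With arrays shifted to an equal median signal they were 8 and 5 (all genes 26.6% and 30.6%), and with quantile normalization 7 and 7 (25.5% and 21.6%), where the median of the set was 0.16. Of the 20 genes past the limit, Ctsd, Glb1, Lamp1 and Scarb2 then had the opposite sign.

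From HEC to day 10.5 cluster cells, the step at which blood cells leave the endothelium, 13 genes were higher and 5 lower, where 43.1% of all measured genes were higher and 15.7% lower. The median of the set was 0.95 and that of all genes 0.71, so that the set as a whole was near the background. The 5 lower genes were Ctsh, Npc1, Ctsl, Ctsb and Lgmn, and 4 of them belong to the cysteine cathepsins and legumain. Of the 8 glycosidases 6 were higher and 0 lower, and of the 3 other proteases 2 were higher. With quantile normalization Gusb (1.11) and Man2b1 (1.87) were the only glycosidases still higher by 1 or more. The remaining ones then ran from -0.29 (Neu1) to 0.83 (Glb1). The proteases Ctsa (1.22) and Tpp1 (1.44) stayed past the limit. With arrays shifted to an equal median the counts were 17 and 5 (56.0% and 11.5% of all genes). With quantile normalization they were 6 and 8 (27.9% and 22.7% of all genes), and Scarb2 went from 1.60 to -0.31.

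Between E10.5 and day 12.5 cluster cells 6 genes were higher at E12.5 (Gm2a, Ctss, Lgmn, Ctsh, Npc1 and Ctsz) and 7 lower (Ctsc, Ctsl, Gla, Glb1, Gusb, Neu1 and Ppt1), where 5.47% of all measured genes were higher and 39.9% lower. Without the 3 cells low in Kit 2 were higher, Gm2a and Npc1, and 12 lower, where 5.61% of all measured genes were higher and 39.0% lower, and the median of the set went from -0.37 to -0.89 while that of all genes was -0.66 and -0.64. The differences of Ctss, Lgmn and Ctsh went from 2.78, 2.28 and 2.21 to 0.56, 0.19 and 0.35. The number lower was also unsteady, at 2 to 4 without any 1 of E10.5 cells 1, 10, 14, 17 and 27 or E12.5 cells 1, 9, 13, 15 and 16. With quantile normalization the counts over all cells were 11 higher and 1 lower (15.1% and 19% of all genes), where the set median was 0.73 and, of the genes past the limit, Neu1 and Ppt1 turned in sign.

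**Figure D4:**
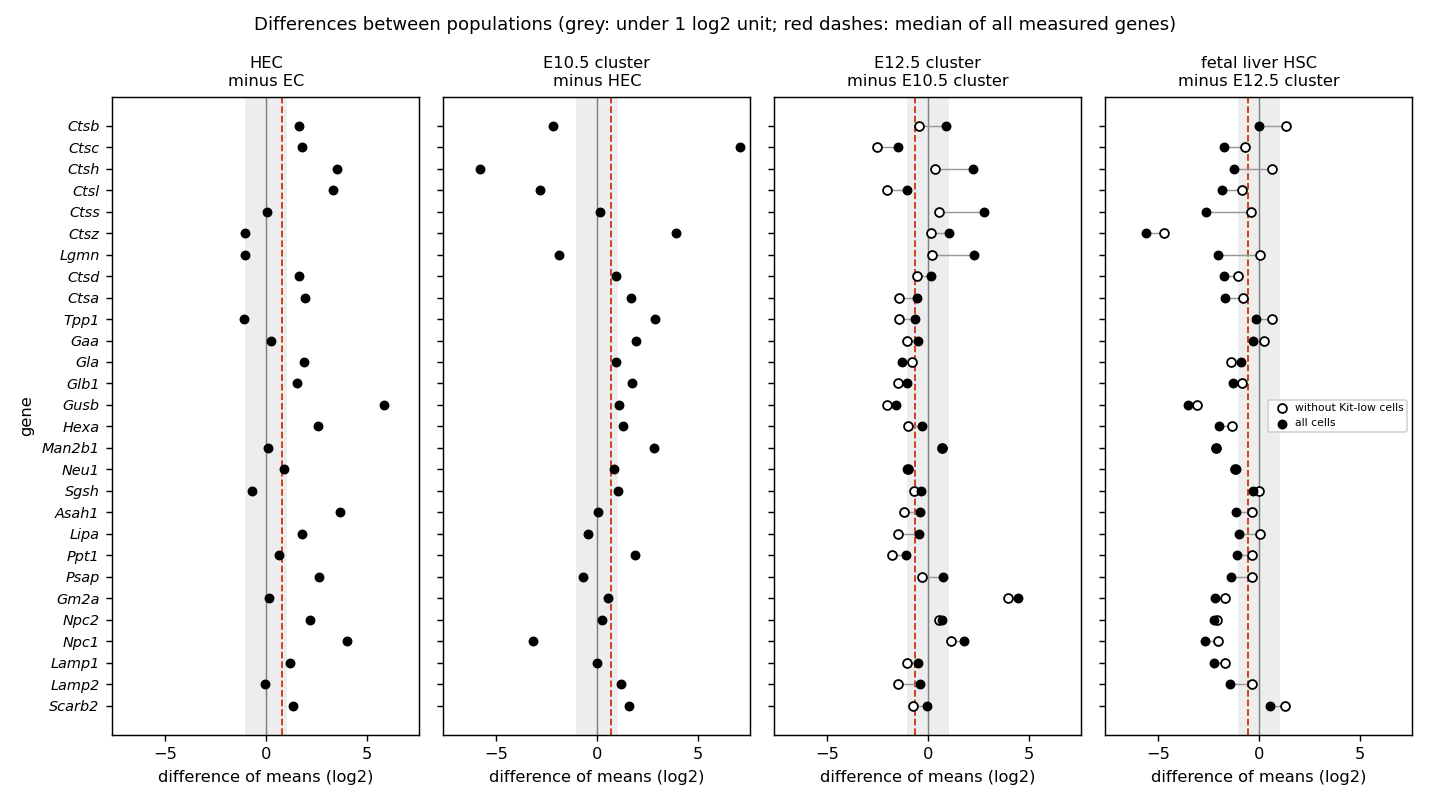
Difference of mean log2 values for each of the 28 genes in 4 comparisons, with all cells (filled) and, for those with day 12.5 cluster cells, without the 3 cells low in Kit (open). Grey covers differences under 1 and the dashed line is the median of all measured genes. Ctsc (7.07) and Ctsh (-5.80) mark the ends in the second panel, Ctss, Lgmn and Ctsh shift to within the grey band in the third when the 3 cells are left out, and Gm2a does not.

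In fetal liver HSC against day 12.5 cluster cells 0 genes were higher and 21 lower, where 7.91% of all measured genes were higher and 36.9% lower. The set median was -1.55 and that of all genes -0.54. Without the cells low in Kit 2 were higher (Ctsb and Scarb2) and 11 lower, where 8.20% of all measured genes were higher and 37.8% lower, with medians of -0.76 and -0.54. The 11 of 28 were then near the background share. Ctsz and Gusb had the lowest differences with and without them. With quantile normalization over all cells the counts were 1 and 12 (17.3% and 19.3% of all genes).

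Against day 10.5 cluster cells, with which the comparison above shares the HSC, 2 genes were higher in HSC (Gm2a by 2.29 and Ctsh by 1.00) and 17 lower, where 5.01% of all measured genes were higher and 55.5% lower. The share of lower genes was near the background, and the medians were -1.52 and -1.29. Gusb (-5.09), Ctsz (-4.52), Ctsc (-3.22) and Ctsl (-2.86) were lowest. Ctsh lay at the limit and missed it without any of 31 single cells. With quantile normalization the counts were 7 and 5 (20.4% and 25.8% of all genes).

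The 3 day 12.5 cluster cells low in Kit stood apart in the lysosomal genes. Cells 3, 6 and 10 had Kit at 3.53, 4.06 and 2.45, and held 25, 26 and 26 of the 28 genes above background, where the other 13 cells held 14 to 23. For 21 of the 28 genes (75%) the highest E12.5 value was in one of these 3 cells, against 17.2% of the 9718 measured genes above background in an E12.5 cell. Lgmn was at 13.61, 14.45 and 14.37, Ctsb at 14.44, 14.90 and 14.98 and Ctsh at 13.60, 13.38 and 11.27 in them, where the highest of the other 13 were 8.18, 11.59 and 8.67. For these genes and for Ctss, Ctsz and Lamp2 (6 of 28) each of the 3 cells lay above all the other 13, as was so for 0.982% of all measured genes. In the same 3 cells 12 to 13 of 16 macrophage markers were above background, and C1qa, C1qb, C1qc, Adgre1, Mrc1 and Csf1r were above 5 in all 3. In the other 13 at most 2 were. The summed log2 level of the 16 markers was 155.42 to 168.98 in the 3 cells and 39.94 to 55.73 in the others, with Trem2 and Cd163 at background in every E12.5 cell. The part of these markers in the result was not tested.

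Among the 13 E12.5 cells with Kit, cell 14 had the highest lysosomal mean (10.39), with 23 of 28 genes above background and the highest E12.5 values of Gla (13.38), Glb1 (13.16), Man2b1 (14.02) and Npc2 (14.18). Its Kit was 14.23, and 3 of 6 mast-cell markers were above background in it (Cpa3 at 14.98, Hdc at 13.01 and Cma1 at 10.01). In the 13 cells 0 to 3 of these 6 markers were above background, with a summed level of 15.01 to 49.15 and with Mcpt4 and Tpsb2 at background throughout. Cell 5, also with 3 of the 6 and with the highest sum, had a lysosomal mean of 8.74. Cell 11, with 1 of the 6, was at 8.73. Mitf was at 13.06 in cell 14 and at 12.03, 3.50 and 7.26 in cells 3, 6 and 10, which are low in Kit. Cell 6, with Mitf at background, had the highest lysosomal mean of these (12.19). In cell 8, with Mitf at 8.31, the lysosomal mean was 6.27. The part of Mitf in these values was not tested. Among HSC, cells 7 and 5 with the sinusoidal markers had lysosomal means of 8.68 and 7.96, where the HSC median was 6.24. HSC cells 4 and 27, with 0 of the 5 sinusoidal markers, were at 8.02 and 7.88. Among day 10.5 cluster cells the highest lysosomal means were those of cells 27 and 20 (10.17 and 9.57). In these 4 and 5 of 16 macrophage markers were above background, where the 28 cells had 0 to 5 and a summed level of 39.03 to 76.15. Day 10.5 cluster cell 7, also with 4 of the 16, was at 8.35, where the median of the 28 was 7.97. The part of mast-cell, sinusoidal or macrophage genes in these values was not tested.

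Genes that work with the set were counted from lists, on the same limit of 1 log2 unit and over measured genes. The V-ATPase had 15 measured genes, of which 10 were higher and 0 lower in HEC than in EC, where 45.9% and 7.36% of all measured genes were. With quantile normalization these were 6 and 2 (25.5% and 21.6% of all genes). Against HEC, 11 were higher and 0 lower in day 10.5 cluster cells (8 and 1 with quantile normalization), where 43.1% and 15.7% of all measured genes were (27.9% and 22.7%), with Atp6ap2 at 5.70 and Atp6v1c1 at 5.51. In HSC 14 of the 15 were lower than in day 10.5 cluster cells, against 55.5% of all genes, and 6 of 15 with quantile normalization, against 25.8%.

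Enzyme sorting and maturation had 17 genes, of which 13 were higher and 2 lower in day 10.5 cluster cells than in HEC. Of all measured genes 43.1% and 15.7% were. With quantile normalization the counts were 5 and 3, against 27.9% and 22.7% of all genes. Gnptab, which makes the mannose 6-phosphate tag, differed by 6.79 and Igf2r, a receptor for the tag, by -5.22, and by 5.89 and -5.12 with quantile normalization. In HSC 14 of these 17 were lower and 1 higher than in day 10.5 cluster cells, against 55.5% and 5.01% of all measured genes. With quantile normalization 8 were lower and 3 higher, against 25.8% and 20.4% of all genes. Of 16 autophagy genes 10 were higher and 1 lower in HEC than in EC, and 13 were lower and 0 higher in HSC than in day 10.5 cluster cells. Of all measured genes 45.9% and 7.36% were higher and lower at the first step and 55.5% were lower at the second. With quantile normalization the autophagy counts at the first step were 5 and 3, against 25.5% and 21.6% of all genes. At the second 3 were lower and 2 higher, against 25.8% and 20.4%. Atg3, which conjugates LC3 to lipid, was 6.39 higher in day 10.5 cluster cells than in HEC and differed by -5.55 between HSC and day 10.5 cluster cells.

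Of the 4 MiT/TFE factors 1 was higher and 0 lower in HEC than in EC, against 45.9% and 7.36% of all measured genes. In HSC 0 were higher and 2 lower than in day 12.5 cluster cells, against 7.91% and 36.9%. With quantile normalization these counts were 1 and 1 (25.5% and 21.6%) and 2 and 2 (17.3% and 19.3%). Among the factors, Tfe3 was above background in 2 of the 7 EC and 6 of the 7 HEC. It was above in 16 of 28 day 10.5 cluster cells, 10 of 16 day 12.5 cluster cells and 4 of 26 HSC. The mean of Tfe3 was 3.07 higher in HEC than in EC, and day 10.5 cluster cells differed from HEC by -1.81. Between HSC and day 12.5 cluster cells it differed by -3.19 (-2.42 without the cells low in Kit). With quantile normalization, over all cells, these differences were 1.45, -2.76 and -2.31. A list of cystatins and other protease inhibitors had 6 measured genes, among them Timp1, which inhibits metalloproteinases. Of the 6, 5 were lower and 0 higher in HSC than in either cluster population. Of all measured genes 36.9% were lower than at E12.5 and 55.5% than at E10.5. With quantile normalization 5 were lower than in E12.5 and 4 than in day 10.5 cluster cells, against 19.3% and 25.8% of all genes. Serpinb1a differed by -6.25 and Cstb, a cytosolic inhibitor of cathepsins, by -3.71 between HSC and day 10.5 cluster cells.

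The 19 other lysosomal hydrolases measured, of 26 listed, had 4 higher and 3 lower in HEC than in EC, against 45.9% and 7.36% of all measured genes, and a median of 0.01 where that of all genes was 0.82. In day 10.5 cluster cells 8 were higher and 2 lower than in HEC (43.1% and 15.7% of all genes), and in HSC 1 was higher and 11 lower than in day 10.5 cluster cells (5.01% and 55.5%). With quantile normalization the counts of the 3 comparisons were 3 and 7, 6 and 5, and 6 and 1. The shares of all genes were then 25.5% and 21.6%, 27.9% and 22.7%, and 20.4% and 25.8%. Of 17 other lysosomal membrane proteins measured, 8 were higher and 2 lower in HEC than in EC. This was near the 45.9% and 7.36% of all measured genes. With quantile normalization the counts were 5 and 4, against 25.5% and 21.6%. Laptm5, a membrane protein of blood cells, was 5.60 higher in HEC than in EC and 4.63 higher in day 10.5 cluster cells than in HEC. Laptm4b, a related protein, went the other way at the second step (4.09 and -5.79).

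The genes whose level was most like the mean of the set over the 84 cells were Gas7, Arpc4, 3000002C10Rik, Cox8a, Lamtor1, Dnajc17, Atp6v1b2 and Rnasek, with Pearson r from 0.664 to 0.624. The mean of all measured genes gave 0.650, so that only 3 of these genes were closer to the set than the general level of the cell. Without the 3 cells low in Kit (81 cells) the leading genes were Dnajc17 (0.755), Cox8a (0.743) and 3000002C10Rik (0.741), below the 0.795 of the mean of all measured genes. These correlations share the arrays and their depth, and are descriptions.

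Other probe sets of the same genes gave a check on the differences. Of the 28 genes 14 had another probe set above background in at least 3 cells, and 8 had 1 probe set only. Of 69 comparisons of a difference of 1 or more with another such probe set, 55 had the same sign, 9 the opposite sign at under 1 and 5 the opposite sign at 1 or more. The 5 were 3 on Ctsb (HEC minus EC at -1.10 and -2.79, and E10.5 cluster minus HEC at 1.19), 1 on Ctsc (E12.5 minus E10.5 cluster at 1.31) and 1 on Man2b1 (HSC minus E12.5 cluster at 1.02). The probe sets used for Gaa, Lipa and Lamp2 are of types that may match further transcripts.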

How the data were processed

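Single-cell RNA of 85 cells was amplified and each hybridised to 1 Affymetrix whole-genome array. The deposited values are log2 expression. Per the submitters' processing notes, the authors used GCRMA and the affy package (no version is given in the sources used here). This method subtracts a sequence-based background and summarises the probes of a set, so low values pile up near the lower bound, and fold sizes of low genes are not comparable between genes. The values were not renormalized. Of 45101 probe sets 34958 had 1 gene symbol in the platform table, 932 several and 9211 were not listed; those with 1 symbol gave 18194 genes. The gene's brightest probe set (highest mean over the 5 populations weighted equally) was used, and 10695 genes above 5 in at least 3 cells counted as measured.

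Arrays of a population correlating above 0.95 were averaged (r = 0.991, next pair 0.859). A population is 1 sample, so differences of mean log2 values are given with no test, against the share of all measured genes past the same size. Exact Clopper-Pearson 95% intervals of shares hold counting error alone. Precision is limited by the number of arrays. Members and lists were chosen with earlier results of these data known. All listed members are reported; from companion lists at most 4 genes per comparison could be named, those with the largest difference whose signal passed background in 50% or more of the cells on the higher side. Alternatives were 2 scalings, averaged probe sets, medians over cells, a floor at 5, a size of 2, and cells left out. The calculation returned a known shift that was added to permuted values. This checks the arithmetic alone and not the results. Python 3.11.15, numpy 2.4.6, pandas 2.3.3, scipy 1.17.1 and matplotlib 3.10.9 were used.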

Additional observations from a re-analysis of the deposited data

Results flagged for a closer look

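Among the populations of 7 cells, 58 gene and population pairs or their per-cell means were examined for a cell lying far from the others, and 7 were found. Chance gives about 1 in 20 for normally distributed values, and values here lie mostly near the lower bound or well above it, so the number found is not read as an excess. In EC, Gla was at 6.38 in cell 6 (others 2.32 to 2.42), Sgsh at 7.27 in cell 5 (others 2.32 to 2.40), Gm2a at 6.95 in cell 3 (others 2.84 to 3.19) and Npc1 at 9.32 in cell 3 (others 2.35 to 3.27). Cell 3 is the EC with germ-cell markers. Npc2 was at 3.05 in EC cell 4, where the others ran from 8.82 to 12.81. In HEC, Gm2a was at 7.71 in cell 1 (others 2.87 to 3.12) and Scarb2 at 11.96 in cell 6 (others 3.90 to 3.94).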

How the results depend on the processing

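The single array per cell and the 7 EC and 7 HEC limit what these data show, since leaving out 1 cell moved counts and most genes are near the lower bound in some cells. Of 4063 alternative values of differences of 1 or more, 28 turned in sign, and of 2265 of differences under 1, 186 did, 10 of them to 1 or more the other way. Most of both sets of values come from leaving out 1 cell, a small change, so the totals say little about the scalings. With quantile normalization alone 4, 1, 2, 0 and 5 differences of 1 or more turned in the 5 comparisons, in the order below. Signs named in the following are those of differences of 1 or more unless said otherwise. No paired analysis was possible because the labels give no number that ties cells of different populations to an embryo. The causes of the following changes were not tested unless the setting itself removes cells, genes or signal.

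For HEC minus EC, 17 genes were higher and 3 lower. An equal median signal gave 8 and 5 (26.6% and 30.6%) and quantile normalization 7 and 7 (25.5% and 21.6%, set median 0.16). A size of 2 log2 units gave 8 and 0. A floor at 5 gave 1 lower (3.45%), and leaving out cells with markers of another type 0 lower (6.28%). With single cells left out the counts were 15 to 19 and 0 to 3 and the median 1.08 to 1.68. Signs turned with quantile normalization for Ctsd (-0.12), Glb1 (-0.06), Lamp1 (-0.25) and Scarb2 (-0.72), with averaged probe sets for Ctsb (-0.46), with medians over cells for Ctsc (-0.25), Gla (-0.01) and Scarb2 (-0.02), and without EC cell 3 for Tpp1 (0.07, from -1.93 to 0.07 with single cells left out). Of the 8 differences under 1, 4 turned with quantile normalization, with Gaa at -2.01 and Gm2a at the limit, and Lamp2 was 1.26 with medians.

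For day 10.5 cluster minus HEC, 13 were higher and 5 lower. Quantile normalization gave 6 and 8 (27.9% and 22.7%) and a size of 2 gave 4 higher. With single cells left out the counts were 9 to 16 and 5 to 7 and the median 0.44 to 1.07. Signs turned for Scarb2 (-0.31, quantile) and Sgsh (-0.02, median over cells), and for 5 of 10 differences under 1 with quantile normalization, with Gm2a at -1.03.

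For day 12.5 minus day 10.5 cluster, 6 were higher and 7 lower. Quantile normalization gave 11 and 1. Lower counts were 2 with averaged probe sets, 3 with medians, 2 with a floor and 0 at a size of 2. Without the cells low in Kit at E12.5 or in any cluster population or HSC (chosen after seeing the data), or all cells with markers of another type, 2 were higher and 12 lower. Of all measured genes 5.56% to 5.61% were then higher and 39.0% lower. With single cells left out the counts were 5 to 7 and 2 to 7 and the median -0.66 to -0.09. Signs turned for Neu1 (0.21) and Ppt1 (0.10) with quantile normalization, Ctsc (0.04) with averaged probe sets and Ppt1 (0.26) with medians, and for 9 of 15 differences under 1 with quantile normalization, with Scarb2 at 1.45.

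For HSC minus day 12.5 cluster, 0 were higher and 21 lower. Quantile normalization gave 1 and 12 (17.3% and 19.3%), medians over cells 2 higher (5.85%) and a size of 2 gave 9 lower. Without the cells low in Kit the counts were 2 and 11 (8.20% and 37.8%). Without cells of another type 2 were higher (8.27%). With single cells left out the counts were 0 and 18 to 23 and the median -1.78 to -1.31. Signs turned for Ctsh (0.02), Ctss (0.01) and Lgmn (0.02) with medians, and for Ctsh (0.65) and Lgmn (0.05) without the cells low in Kit. The sign of Ctsh also turned without cells of another type (0.75) and without all cluster cells and HSC low in Kit (0.70). In the last setting 2 genes were higher and 12 lower (8.01% and 37.6%). Of 7 differences under 1, 3 turned with quantile normalization; Tpp1 was 1.07 with medians and Scarb2 -1.02 with averaged probe sets.

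For HSC minus day 10.5 cluster, 2 were higher and 17 lower. Quantile normalization gave 7 and 5 (20.4% and 25.8%, set median -0.01) and averaged probe sets 0 and 11 (2.93% and 45.5%). A size of 2 gave 1 and 11. A floor gave 1 higher (2.67%), as did the near-identical arrays kept apart (5.06%). With single cells left out the counts were 1 to 3 and 17 to 18 and the median -1.65 to -1.42. Signs turned with quantile normalization for Ctsd (0.30), Man2b1 (0.23), Asah1 (0.48), Lipa (0.03) and Lamp2 (0.03), and for 3 of 9 differences under 1 (Tpp1 1.42, Gaa 1.73 and Psap 1.33). The mean of the set per cell was 7.06 in EC and 7.56 in HSC with a floor at 5, and 5.89 in HEC, 6.31 in day 10.5 cluster cells and 5.28 in HSC with averaged probe sets.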
